A study of Mus musculus with 20 samples.

Results

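Collagen and stromal matrix genes were followed across 20 CT26 mouse tumours: 36 of the 55335 genes listed for each tumour, chosen by name and matched through their Ensembl identifiers to GENCODE vM21 (mouse genome build mm10). They comprised 17 collagen chains, 10 glycoproteins of the matrix and the elastic fibre, 3 small leucine-rich proteoglycans, 4 enzymes or helpers of collagen crosslinking and processing, and 2 fibroblast surface proteins, Fap and Pdgfra. Values are FPKM, fragment counts scaled for gene length and library size. All 36 genes passed the filter on low values, at least 1 FPKM in at least 5 of the 20 tumours, which left 13982 genes to test.

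CT26 is a colon carcinoma cell line of the BALB/c mouse. Cells carrying an empty vector, or cells labelled POLE-mutant, were grown as tumours in mice given PBS or an antibody to PD-1, the inhibitory receptor of activated T cells, with 5 mice in each of the 4 groups: vector PBS, vector anti-PD-1, mutant PBS and mutant anti-PD-1. The series title names CHEK2 where every label and the design name POLE (DNA polymerase epsilon), and it asks how such mutations bear on the tumour's immune surroundings and its response to PD-1 inhibition. The labels give neither the mutation, nor how it was introduced, nor whether the mutant cells are 1 clone, so the mutation and any other difference between the lines cannot be told apart. Nor do they give the strain, age or sex of the mice, or the dose and timing of treatment.

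The extracellular matrix of a tumour is a scaffold laid down mostly by fibroblasts. Fibril-forming collagens are secreted as triple-helical precursors, trimmed outside the cell, assembled into fibrils whose width small leucine-rich proteoglycans help to set, and joined by lysyl oxidases. Network-forming collagens line vessels and epithelia as basement membrane, while fibrillins, fibulins and elastin build elastic fibres. Bulk tumour RNA mixes cancer and host cells, so more cells of a type and more RNA per cell cannot be told apart in any value below.

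The 20 libraries summed to between 328740 and 566913 FPKM, and read depth is not given in the sources used here. Tumours 1 and 2 of the mutant anti-PD-1 group stood apart from the rest: their mean Spearman correlation with the other libraries, across genes, was 0.748 and 0.835, against 0.776 in vector anti-PD-1 tumour 1 and at least 0.899 in the others. Counts of calls over all 36 genes are given with and without these 2 tumours, as are the estimates of some genes. For the other genes only estimates from all 20 libraries are printed. Without the 2 tumours, 0 of the 36 genes passed as higher under anti-PD-1 in mutant tumours. Titles carry animal identifiers of 2 styles, M with a number or a number alone, and tumours 1 and 2 are also the M-style members of their group, so that the style and the 2 tumours cannot be told apart there. Pole RNA averaged 8.62 ± 1.64 FPKM (SD, n = 5) in vector PBS and 5.22 ± 0.872 in mutant PBS tumours, and Chek2 ranged from 3.33 to 8.38 over all 20; neither level shows whether a gene is mutated. Of the epithelial genes that could mark a carcinoma, Epcam stayed at or below 0.840 and Cdh1 at or below 0.638 FPKM in every tumour. The keratin gene Krt18 ranged from 3.97 to 22.6 FPKM in 18 tumours and stood at 0.572 and 1.86 in tumours 1 and 2. Another keratin gene, Krt8, read 0.520 and 0.213 FPKM in tumours 1 and 2, inside its range of 0.0365 to 3.36 in the other 18.

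Mutant anti-PD-1 tumours held more matrix RNA than mutant PBS tumours, and the excess lay mainly in 2 of the 5. Summed over the 36 genes, the level was 4687 FPKM in tumour 1 and 3461 in tumour 2, against 629.7 to 1471 in the other 18. As a share of all FPKM this was 1.32% and 1.03%, against 0.111% to 0.424%. For 31 of the 36 genes both tumours lay above every one of the other 18, as did 15.8% of all genes tested. The lower of the pair exceeded the highest other tumour by 1.23 times (Col18a1) to 4.50 times (Col1a1), with a median of 2.46 times over the 31 genes, and tumour 1 was the higher of the pair for 26 of them. The 5 exceptions were Col8a1, Col16a1, Fn1, Thbs2 and Pcolce.

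**Figure D1:**
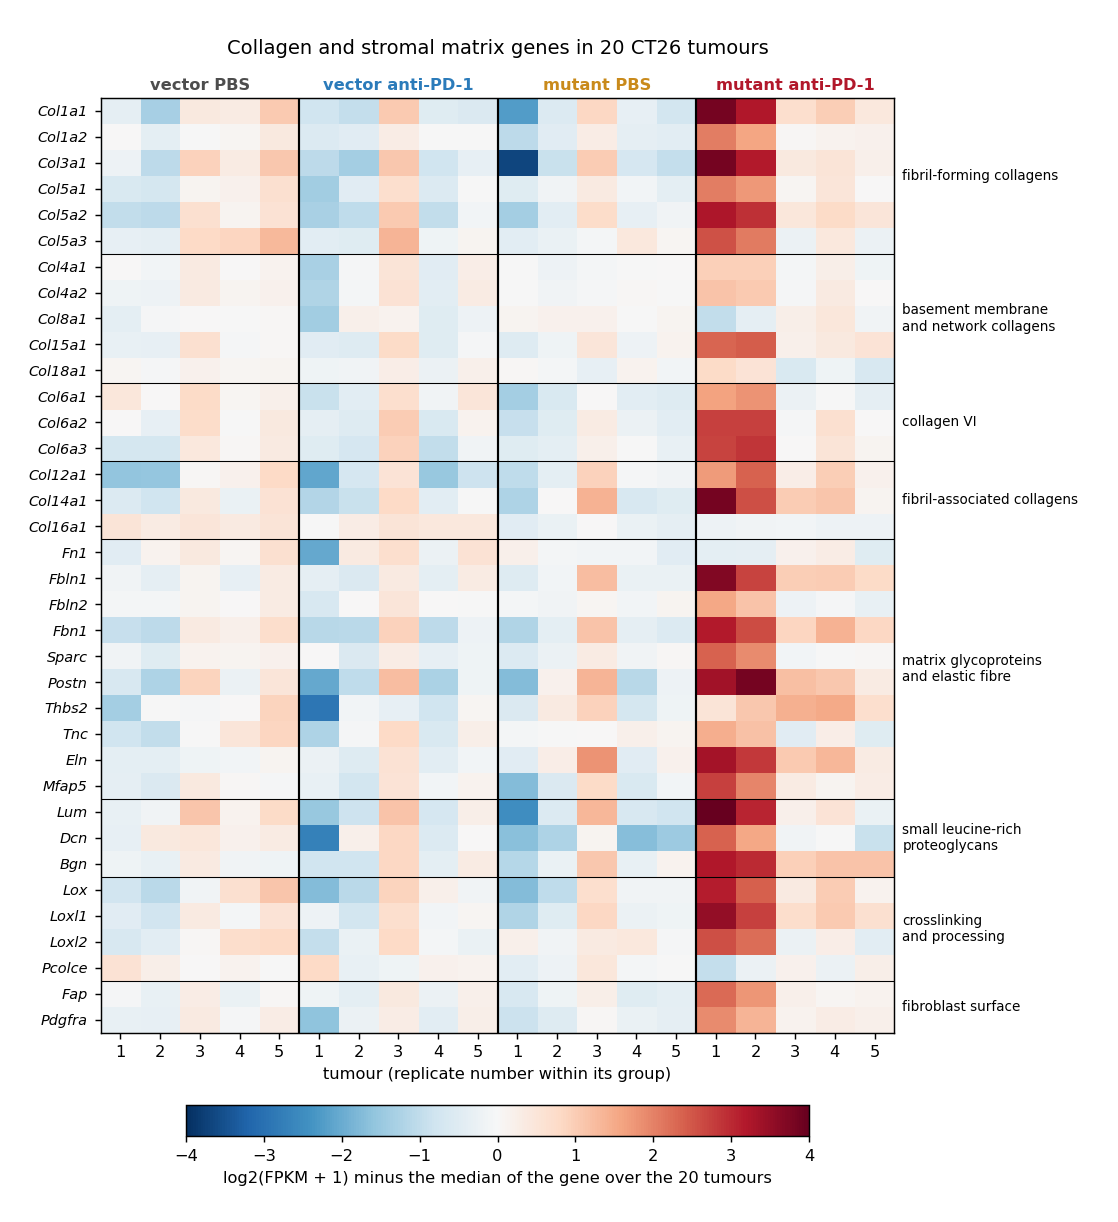
Each row is a gene and each column a tumour, with colour showing log2(FPKM + 1) minus the gene's median over the 20 tumours; colours stop at 4 in either direction. Columns 1 and 2 of the mutant anti-PD-1 group hold the highest values of the row for 31 of 36 genes, and Col16a1 lies below its median in 9 of the 10 mutant tumours.

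Moderated linear models (limma, log2(FPKM + 1), adjusted p-values over the 13982 genes) gave 21 of the 36 genes higher and 0 lower under anti-PD-1 in mutant tumours, where 30.5% of all genes were called in either direction. In vector tumours the same treatment gave 0 calls among the members and among all genes (0% called), with 0 members and 426 genes at an unadjusted p under 0.05; 32 members had the lower mean under anti-PD-1, over a range of -0.71 (Thbs2) to 0.06 (Eln) in log2 fold change, where 36.8% of all genes had the higher mean. That direction was not stable: 22 of the 36 had the higher mean in libraries titled with a number alone (median 0.14), and 12 did without vector anti-PD-1 tumour 1 (median -0.03). Mutant against vector tumours gave 1 member lower under PBS (1.45% of all genes called) and 20 higher and 1 lower under anti-PD-1 (32.9%). The difference between the anti-PD-1 responses of mutant and vector tumours, the direct test of a genotype-specific response, passed for 0 members (9.35% of all genes). It passed for 15 when vector anti-PD-1 tumour 3 was left out, where 1642 of the 13982 genes were called. With all libraries, 24 members and 3779 of the 13982 genes had an unadjusted p under 0.05, and 34 members and 51.1% of all genes had the higher response in mutant tumours. Median log2 fold changes of the members were 1.24 under anti-PD-1 in mutant tumours (all genes -0.10), -0.23 in vector tumours (all genes -0.08), 1.22 for mutant against vector under anti-PD-1 and -0.15 under PBS (both 0.00 over all genes), and 1.55 for the difference of responses (0.01). The mutant anti-PD-1 libraries enter both comparisons with many calls, so those are not independent of each other.

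Without tumours 1 and 2, 0 members rose in mutant tumours under anti-PD-1 and 1, Col18a1, fell (9.72% of all genes called), and the median was 0.32. Mutant against vector under anti-PD-1 then gave 0 higher and 2 lower (Col18a1 and Col16a1; 11% of all genes), and the difference of responses 0 (1.09%). Leaving out tumour 1 alone gave 5 calls among the members under anti-PD-1 in mutant tumours in place of 21, where 2754 of the 13982 genes were called. Leaving out tumour 2 alone gave 7, where 3080 genes were called. Leaving out mutant PBS tumour 1, which was lowest of its group for 26 of 36 members, gave 9, where 3291 genes were called. Against vector anti-PD-1 tumours, leaving out tumour 1 or tumour 2 gave 8 higher and 1 lower, where 3332 and 3280 of the 13982 genes were called. In these omissions of 1 tumour, members were called about as often as all genes, or less often. Fbn1, Bgn and Loxl1 kept their call under anti-PD-1 in mutant tumours in all 10 fits that left out 1 tumour of this comparison. Fbln1 and Fap did too, but with Eln they are the 3 members that reached 1 FPKM in fewer than 5 of the 15 tumours of the other groups. These 3 entered the tests only through the group where they are high, so their calls and folds are a description, and their places in the counts of members support nothing.

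**Figure D2:**
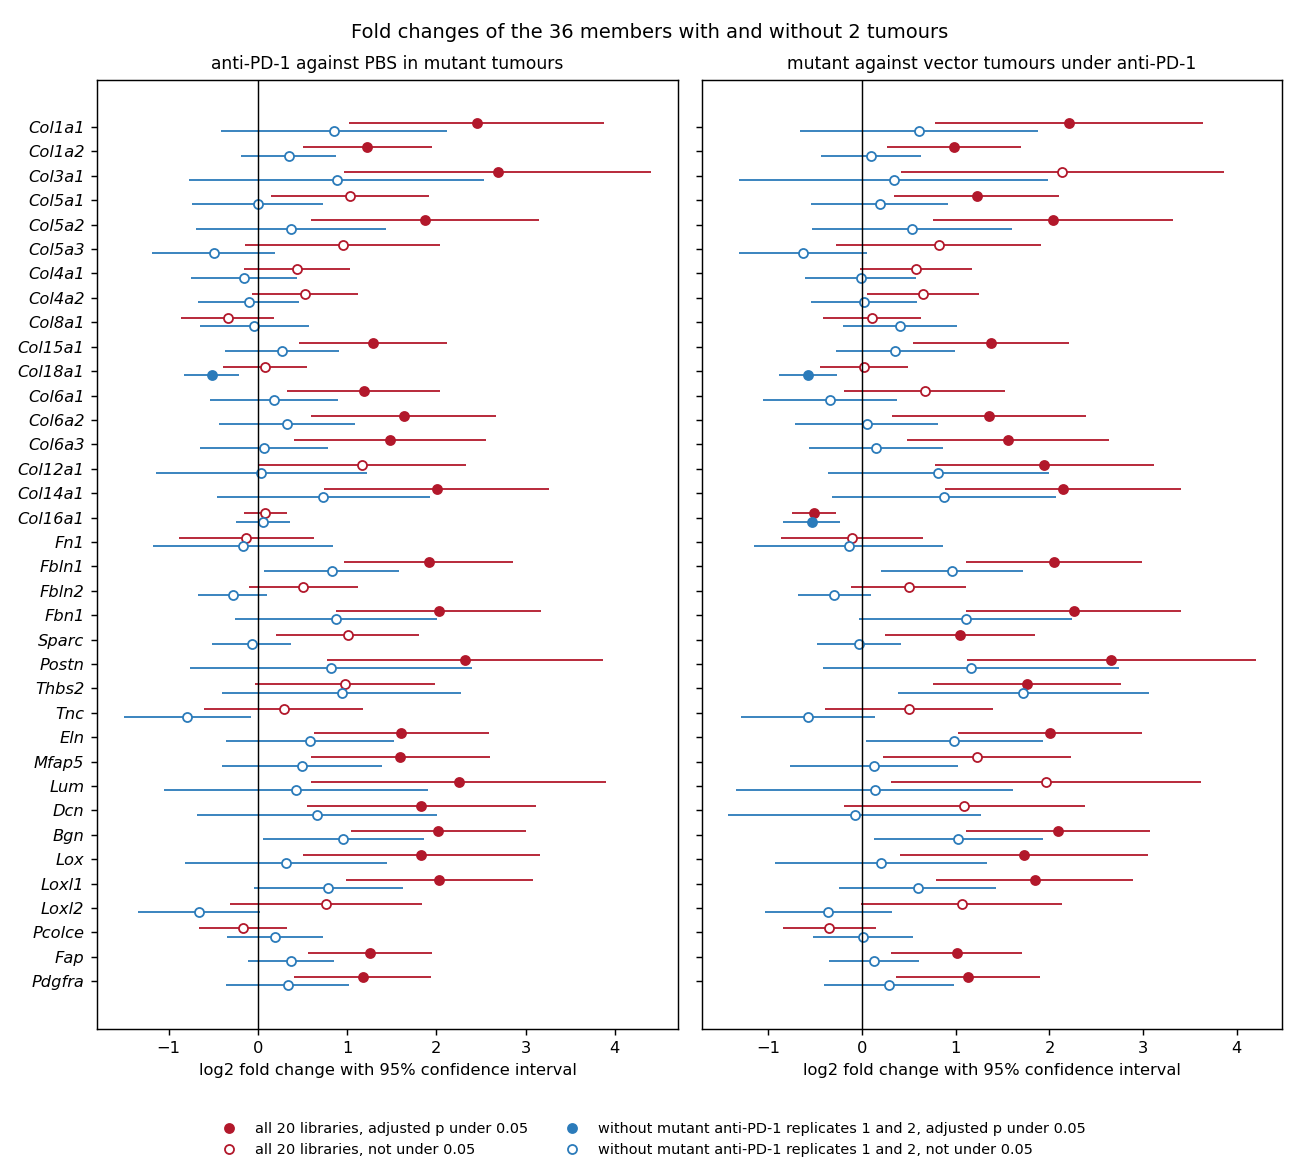
Points are log2 fold changes with 95% confidence intervals for the 36 genes in both comparisons that involve mutant anti-PD-1 tumours, with all 20 libraries (red) and without tumours 1 and 2 (blue); filled points have an adjusted p under 0.05. With all libraries 21 genes are filled in each panel, and without the pair 1 is filled on the left and 2 on the right.

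The 150 bases upstream of the annotated start are printed for 3 genes that stand for the patterns below: Col3a1, high in tumours 1 and 2, Bgn, whose call held when any 1 tumour was left out, and Col16a1, which differed by genotype. They come from RefSeq (GRCm38.p6), all on the plus strand, and capitals mark matches to the TATA box (TATAAA, forward strand only), or on either strand the CCAAT box (CCAAT), the GC box (GGGCGG) and the AP-1 site (TGACTCA).
Col3a1, chr1:45311388-45311537: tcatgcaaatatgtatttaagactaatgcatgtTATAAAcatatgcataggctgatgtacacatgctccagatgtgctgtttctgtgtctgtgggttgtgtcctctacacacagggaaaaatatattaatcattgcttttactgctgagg
Bgn, chrX:73483451-73483600: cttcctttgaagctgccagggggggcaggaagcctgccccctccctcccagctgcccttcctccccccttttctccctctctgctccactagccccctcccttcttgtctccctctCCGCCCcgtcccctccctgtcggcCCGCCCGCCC
Col16a1, chr4:130047690-130047839: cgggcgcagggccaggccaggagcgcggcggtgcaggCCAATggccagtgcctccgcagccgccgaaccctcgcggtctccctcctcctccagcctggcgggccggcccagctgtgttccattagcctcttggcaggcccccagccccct
The Col3a1 stretch holds a TATA match at position -117 from the start, that of Bgn holds the reverse complement of the GC box at positions -34, -10 and -6, the last pair overlapping, and that of Col16a1 holds a CCAAT match at -113 and overlaps an exon of the antisense gene Gm12963. RefSeq windows were found for 23 of the 36 genes, 28 windows in all. Over the 250 bases before the start, a TATA match was present in 14.3% of member windows and 7.59% of all 32851 windows, the CCAAT box in 25.0% and 33.8%, the GC box in 57.1% and 32.7%, and the AP-1 site in 3.57% and 4.46%. The others were Col1a1, Col5a2, Col12a1, Col14a1, Fn1, Eln, Mfap5, Lum, Dcn, Lox, Loxl1, Loxl2 and Fap.

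Fibril-forming collagens make the load-bearing fibres, and 4 of 6 rose in mutant tumours under anti-PD-1 (median log2 fold change of the 6, 1.55), in a test that called 30.5% of all genes, 2226 higher and 2045 lower. Col1a1 (ENSMUSG00000001506, chr11:94936224-94953042) and Col1a2 encode the chains of type I collagen. From tumour 1 to 5, Col1a1 read 32.5, 15.9, 54.7, 52.3 and 86.7 FPKM in vector PBS, 23.3, 20.9, 86.6, 29.7 and 27.3 in vector anti-PD-1, 7.97, 28.2, 74.4, 33.1 and 24.8 in mutant PBS and 600.0, 390.1, 66.4, 84.0 and 56.1 in mutant anti-PD-1 tumours. Tumours 1 and 2 of the last group were far above all others, and its other 3 lay inside the range of the vector tumours. The log2 fold change under anti-PD-1 was 2.45 ± 0.68 (SE; adjusted p = 0.0113), and without the pair 0.85 ± 0.60 (adjusted p = 0.497). Col1a2 read 368 and 266 FPKM in the pair, 93.0, 97.6 and 101 in tumours 3 to 5, and 43.0 to 116 in the 18 tumours outside the pair. Its log2 fold change under anti-PD-1 was 1.23 ± 0.34 (adjusted p = 0.0117).

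Col3a1 (ENSMUSG00000026043, chr1:45311538-45349706) encodes type III collagen, the partner of type I in loose and healing tissue. It read 60.8, 33.6, 134, 89.4 and 151 FPKM in vector PBS tumours, 33.4, 27.0, 149.7, 40.4 and 56.4 in vector anti-PD-1, 4.62, 37.3, 143, 43.9 and 36.1 in mutant PBS and 1026, 639, 92.7, 102 and 81.9 in mutant anti-PD-1. Outside the pair, tumour 3 was the highest of the vector anti-PD-1 and mutant PBS groups, and mutant PBS tumour 1 was the lowest of all 20. The rise under anti-PD-1 in mutant tumours was 2.69 ± 0.82 in log2 (adjusted p = 0.0195); against vector anti-PD-1 tumours the difference was 2.14 ± 0.82 and missed the threshold (adjusted p = 0.0532). The files also list Gm47302, an annotated miRNA gene inside the first exon of Col3a1 on the same strand, at 0 to 1331 FPKM, so reads there could have been assigned to either gene; it was singled out after its values were seen.

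Type V collagen nucleates type I fibrils. Col5a2, which lies 24614 bases from Col3a1 on chromosome 1, read 91.2 and 72.0 FPKM in the pair and 2.79 to 19.2 in the others, and rose by 1.87 ± 0.61 (adjusted p = 0.0268). Col5a1 read 66.1 and 53.0 against 5.15 to 24.6 FPKM. Its change under anti-PD-1 in mutant tumours missed the threshold at 1.03 ± 0.42 (adjusted p = 0.0710), while mutant exceeded vector tumours under anti-PD-1 by 1.22 ± 0.42 (adjusted p = 0.0325). Col5a3, the less widespread chain of the type, stood at 26.2 and 18.6 FPKM in the pair and 2.34 to 10.97 elsewhere, with a log2 difference of 0.95 ± 0.52 that did not pass (adjusted p = 0.178).

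Of the 5 collagens of basement membranes and related networks 1 rose, where 30.5% of all genes were called, and the median log2 fold change was 0.44. Col4a1 and Col4a2 encode the common type IV chains and start head to head on chromosome 8, overlapping by 22 bases. Col4a1 read 51.1, 46.6, 65.2, 51.6 and 55.6 FPKM in vector PBS tumours, 19.9, 49.3, 72.8, 36.6 and 61.6 in vector anti-PD-1, 49.8, 44.1, 47.5, 50.4 and 51.2 in mutant PBS and 99.5, 98.9, 48.3, 60.01 and 45.1 in mutant anti-PD-1. The pair was highest, but by far less than for the fibrillar genes, and vector anti-PD-1 tumour 1 was lowest. Neither Col4a1 (0.44 ± 0.29, adjusted p = 0.261) nor Col4a2 (0.53 ± 0.29, adjusted p = 0.173) passed under anti-PD-1 in mutant tumours, nor between genotypes.

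Col15a1, a collagen beneath vessel and muscle basement membranes, read 35.5 and 38.0 FPKM in the pair and 4.07 to 11.5 in the others, and rose by 1.29 ± 0.40 under anti-PD-1 (adjusted p = 0.0196). Col18a1, the precursor of endostatin, behaved differently. The pair stood at 20.5 and 17.7 FPKM, tumours 3 to 5 at 7.34, 10.2 and 7.20, and mutant PBS tumours at 9.01 to 13.05. With all libraries the difference was 0.08 ± 0.22 (adjusted p = 0.823), and without the pair Col18a1 was lower, at -0.52 ± 0.15 against mutant PBS (adjusted p = 0.0345) and -0.58 ± 0.15 against vector anti-PD-1 tumours (adjusted p = 0.0174). Col8a1, a short-chain network collagen of vessel walls, read 16.1 and 25.4 FPKM in the pair and 39.5, 45.2 and 29.7 in tumours 3 to 5, and its change of -0.34 ± 0.25 did not pass (adjusted p = 0.317).

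The 3 member chains of collagen VI, the beaded microfilament that links cells to fibrils, rose in mutant tumours under anti-PD-1 (30.5% of all genes called). Col6a2 read 33.3 and 33.0 FPKM in the pair and 1.69 to 9.35 in the others (log2 fold change 1.63 ± 0.49, adjusted p = 0.0185). Col6a3 read 39.9 and 44.02 against 2.17 to 10.9 FPKM (log2 fold change 1.48 ± 0.51, adjusted p = 0.0361). For both of these chains tumours 1 and 2 were nearly level with each other. Col6a1 rose by 1.19 ± 0.41 (adjusted p = 0.0347) from mutant PBS levels that lay below its own in vector PBS tumours. It read 31.6, 23.0, 39.3, 24.2 and 26.4 FPKM in vector PBS and 8.30, 14.5, 23.0, 16.8 and 15.8 in mutant PBS tumours, and those groups only just did not overlap. That genotype difference under PBS, -0.88 ± 0.40, did not pass (adjusted p = 0.433). In mutant anti-PD-1 tumours Col6a1 read 72.6, 81.5, 19.2, 22.8 and 17.5 FPKM.

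Fibril-associated collagens sit on the surface of fibrils and split 3 ways. Col14a1 read 51.9 and 21.2 FPKM in the pair and 6.47, 6.92 and 3.02 in tumours 3 to 5, against 0.556 to 8.63 in mutant PBS tumours, and rose by 2.002 ± 0.60 (adjusted p = 0.0174). Col12a1 read 14.4 and 23.3 in the pair and 0.126 to 8.38 in the others; its change under anti-PD-1 in mutant tumours was 1.17 ± 0.56 (adjusted p = 0.119), and mutant exceeded vector tumours under anti-PD-1 by 1.95 ± 0.56 (adjusted p = 0.0121).

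Col16a1 (ENSMUSG00000040690, chr4:130047840-130099283), a minor fibril-associated collagen, differed by genotype in both treatment arms. It read 30.9, 27.2, 30.4, 28.2 and 31.3 FPKM in vector PBS, 21.1, 26.5, 31.3, 29.4 and 29.1 in vector anti-PD-1, 15.6, 17.5, 21.9, 17.8 and 16.4 in mutant PBS and 18.5, 19.5, 19.8, 18.6 and 18.4 in mutant anti-PD-1 tumours. No mutant tumour under PBS reached the lowest vector PBS tumour, and none under anti-PD-1 reached the lowest vector anti-PD-1 tumour, while tumours 1 and 2 sat among the other mutant tumours. Col16a1 was lower in mutant tumours by a log2 fold change of -0.71 ± 0.11 with PBS (adjusted p = 0.00246) and of -0.51 ± 0.11 with anti-PD-1 (adjusted p = 0.00229). Without the pair the second difference was -0.54 ± 0.14 (adjusted p = 0.0201). Its response to anti-PD-1 was 0.08 ± 0.11 in mutant and -0.11 ± 0.11 in vector tumours (adjusted p = 0.613 and 0.731), with a 95% confidence interval of -0.15 to 0.32 in the former. Under PBS 2 members, Col16a1 and Col6a1, lay lower in all 5 mutant than in all 5 vector tumours (5.74% of all genes), and under anti-PD-1 1 did, Col16a1 (7.83%).

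**Figure D3:**
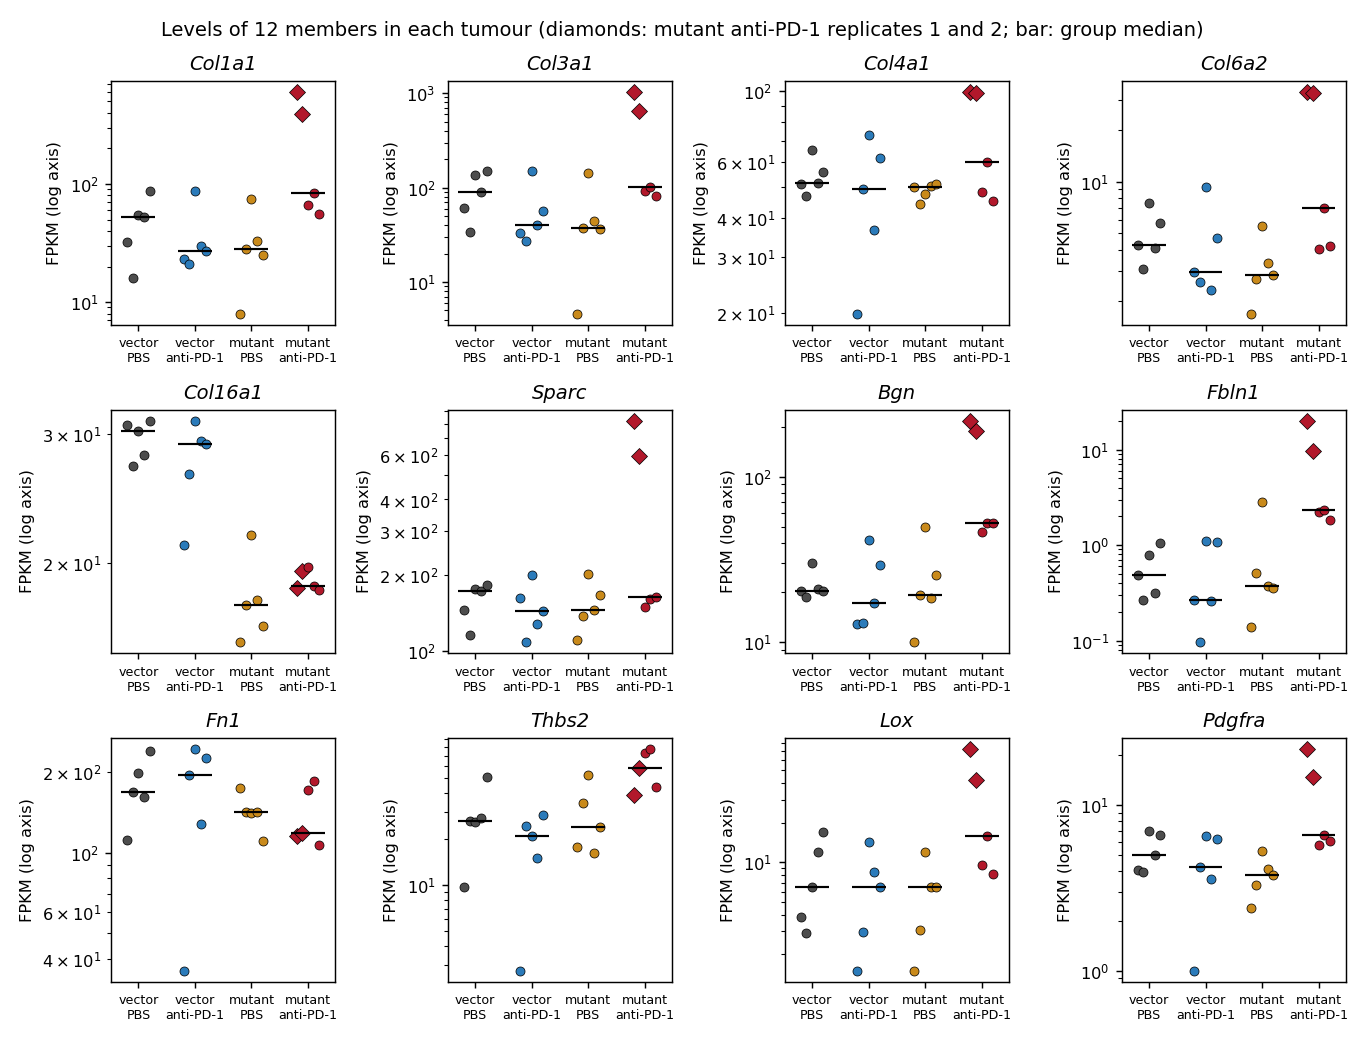
FPKM of 12 of the genes in each tumour on log axes, by group, with diamonds for mutant anti-PD-1 tumours 1 and 2 and bars for group medians. Both diamonds lie on top for 9 of the 12 genes, but not for Col16a1, Fn1 or Thbs2; for Col16a1 the 10 mutant tumours lie between 15.6 and 21.9 FPKM and the 10 vector tumours between 21.1 and 31.3.

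Among matrix glycoproteins and elastic fibre genes, 5 of 10 rose under anti-PD-1 in mutant tumours (median 1.30; 30.5% of all genes called) and 6 of 10 were higher in mutant than in vector tumours under anti-PD-1 (32.9%). Fbln1 and Eln are in both counts and were tested only through the mutant anti-PD-1 group, so neither count supports anything. Fbln1 (ENSMUSG00000006369, chr15:85205949-85286535), fibulin-1 of elastic fibres and basement membranes, read 0.482, 0.266, 0.787, 0.312 and 1.04 FPKM in vector PBS, 0.269, 0.0960, 1.12, 0.261 and 1.07 in vector anti-PD-1, 0.138, 0.508, 2.84, 0.373 and 0.354 in mutant PBS and 20.2, 9.62, 2.23, 2.34 and 1.81 in mutant anti-PD-1 tumours. All 5 mutant anti-PD-1 tumours exceeded all 5 vector anti-PD-1 tumours, and 1 mutant PBS tumour, number 3, overlapped them. As a description, since Fbln1 reached 1 FPKM in only 4 of the 15 tumours of the other groups, the log2 fold changes were 1.91 ± 0.45 against mutant PBS (adjusted p = 0.00393) and 2.05 ± 0.45 against vector anti-PD-1 (adjusted p = 0.00213). Without tumours 1 and 2 the first was 0.82 ± 0.36 (adjusted p = 0.191).

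Fbn1, fibrillin-1 of the microfibril, read 48.4 and 32.5 FPKM in the pair, 8.98, 13.6 and 8.74 in tumours 3 to 5 and 1.38 to 11.3 in mutant PBS tumours. It rose by 2.03 ± 0.55 (adjusted p = 0.00946). Eln, elastin itself, was low: it was listed at 0.207, 0, 1.12, 0.0600 and 0.330 FPKM in vector anti-PD-1 tumours, at 0.0408, 0.697, 3.93, 0.0288 and 0.596 in mutant PBS and at 13.2, 9.16, 1.93, 2.56 and 0.791 in mutant anti-PD-1 tumours. It reached 1 FPKM in 2 of the 15 tumours of the other groups, so its log2 difference of 1.61 ± 0.47 (adjusted p = 0.0149) is a description of a gene tested only through the group where it is high. Mfap5, a small microfibril-associated glycoprotein, read 38.3 and 22.2 in the pair against 0.790 to 9.04 elsewhere, and rose by 1.59 ± 0.48 (adjusted p = 0.0178). Postn, periostin, an adhesion protein of remodelling matrix, was higher in tumour 2 than in tumour 1, at 62.4 and 85.3 FPKM in order, against 0.493 to 14.6 in the others. It gave the highest estimate of the 36 genes for mutant against vector tumours under anti-PD-1, 2.66 ± 0.74 (adjusted p = 0.0101), and rose by 2.32 ± 0.74 under anti-PD-1 in mutant tumours (adjusted p = 0.0236).

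Thbs2, thrombospondin-2, an inhibitor of angiogenesis, was high in the mutant anti-PD-1 tumours without following the pair. It read 9.74, 26.2, 25.9, 27.3 and 50.9 FPKM in vector PBS, 2.75, 24.5, 20.9, 15.03 and 28.6 in vector anti-PD-1, 17.7, 34.6, 52.1, 16.2 and 23.8 in mutant PBS and 38.8, 58.2, 72.8, 77.6 and 43.6 in mutant anti-PD-1 tumours. Tumours 3 and 4 were the highest there, and all 5 exceeded all 5 vector anti-PD-1 tumours. That difference was 1.76 ± 0.48 (adjusted p = 0.00921) with all libraries and 1.72 ± 0.63 (adjusted p = 0.0979) without the pair; against mutant PBS tumours its estimate of 0.98 ± 0.48 missed the threshold (adjusted p = 0.133). Over the 36 genes, 3 (Fbln1, Thbs2 and Bgn) had no overlap between mutant and vector anti-PD-1 tumours with mutant higher (12.1% of all genes), and 1 (Pdgfra) had none between treated and untreated mutant tumours (11.1%).

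Sparc, a collagen-binding glycoprotein, was among the abundant members, with a median of 155 FPKM over the 18 tumours outside the pair. It read 824 and 594 FPKM in the pair, 150.1, 160.2 and 164 in tumours 3 to 5 and 110.0 to 202 in mutant PBS tumours. Its change under anti-PD-1 narrowly missed the threshold (1.01 ± 0.38, adjusted p = 0.0527), and it was higher in mutant than in vector tumours under anti-PD-1 by 1.05 ± 0.38 (adjusted p = 0.0422). Fn1, fibronectin, as abundant with a median of 165 FPKM, did not share the pattern: the pair stood at 116 and 118 and mutant PBS tumours at 111 to 174 FPKM, for a log2 difference of -0.13 ± 0.36 (adjusted p = 0.818, 95% confidence interval -0.89 to 0.63). Vector anti-PD-1 tumour 1 was the lowest of all 20 for Fn1, at 36.1 FPKM. Fbln2 (77.5 and 58.2 FPKM in the pair, 16.1 to 36.8 elsewhere) and the adhesion modulator Tnc (26.2 and 21.1 against 3.23 to 16.9) lay above the rest in the pair, and did not pass in either comparison.

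The 3 small leucine-rich proteoglycans, which coat fibrils and control their spacing, all rose under anti-PD-1 in mutant tumours (median 2.02; 30.5% of all genes called). Bgn (ENSMUSG00000031375, chrX:73483602-73495933), biglycan, read 20.4, 18.7, 30.1, 20.8 and 20.4 FPKM in vector PBS, 12.9, 12.99, 41.5, 17.3 and 29.4 in vector anti-PD-1, 9.99, 19.2, 49.9, 18.6 and 25.5 in mutant PBS and 219, 188, 46.1, 52.4 and 52.4 in mutant anti-PD-1 tumours. Here tumours 3 to 5 were also above all vector anti-PD-1 tumours; tumours 4 and 5 were above all mutant PBS tumours, and tumour 3 lay between mutant PBS tumour 3 and the rest of that group. Its rises were 2.02 ± 0.47 against mutant PBS (adjusted p = 0.00350) and 2.09 ± 0.47 against vector anti-PD-1 (adjusted p = 0.00240). Without the pair they were 0.95 ± 0.43 (adjusted p = 0.209) and 1.03 ± 0.43 (adjusted p = 0.150). Of the 36 genes Bgn had the smallest adjusted p for the difference of responses, 0.0511, with an estimate of 2.10 ± 0.66.

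Lum and Dcn, lumican and decorin, lie 46984 bases apart on chromosome 10. Lum read 0.422, 4.39, 19.05, 4.05 and 3.60 FPKM in mutant PBS and 144, 64.3, 8.01, 10.6 and 5.53 in mutant anti-PD-1 tumours, where the pair was high and the other 3 lay within the mutant PBS range; it rose by 2.25 ± 0.79 (adjusted p = 0.0377). Dcn read 26.9, 44.9, 47.0, 38.6 and 43.6 FPKM in vector PBS, 4.39, 39.6, 61.3, 23.1 and 34.3 in vector anti-PD-1, 10.1, 13.9, 36.8, 9.93 and 11.98 in mutant PBS and 180.5, 102, 30.7, 34.2 and 18.1 in mutant anti-PD-1 tumours. Of the mutant PBS tumours 4 lay below every vector PBS tumour, and tumour 3 did not. The genotype difference under PBS was -1.39 ± 0.61 (adjusted p = 0.391), and the rise under anti-PD-1 in mutant tumours 1.83 ± 0.61 (adjusted p = 0.0304).

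Of the 4 crosslinking and processing genes 2 rose (30.5% of all genes called). Lox, the founding lysyl oxidase, read 72.5 and 42.3 FPKM in the pair and 1.505 to 16.95 elsewhere, and rose by 1.83 ± 0.63 (adjusted p = 0.0350). Opposite-strand genes overlap Lox (AC161119.1, up to 6.13 FPKM), Col18a1 (Slc19a1, 1.49 to 4.67) and Col14a1 (Gm18787, up to 4.32), and without a stated counting strand their reads cannot be told apart from those of the members. Loxl1, the family member tied to elastic fibres, read 48.4 and 27.7 against 0.856 to 7.86 FPKM and rose by 2.04 ± 0.50 (adjusted p = 0.00536). Loxl2 was also above the rest in the pair (28.2 and 21.7 against 1.49 to 7.52 FPKM) without passing (0.76 ± 0.51, adjusted p = 0.276). Pcolce, which speeds removal of the procollagen C-terminal propeptide, ran against the set: tumour 1 was the lowest of all 20 at 43.2 FPKM, tumour 2 stood at 71.7, and the others ranged over 62.6 to 147. Its log2 difference of -0.17 ± 0.24 did not pass (adjusted p = 0.627).

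The fibroblast surface genes were both higher in mutant tumours under anti-PD-1, though Fap reached 1 FPKM in 4 of the 15 tumours of the other groups and was tested only through the group where it is high. Fap, a serine protease of activated fibroblasts, read 0.680, 0.415, 1.14, 0.464 and 0.818 FPKM in vector PBS, 0.544, 0.337, 1.31, 0.490 and 1.02 in vector anti-PD-1, 0.126, 0.560, 1.07, 0.258 and 0.339 in mutant PBS and 7.48, 4.93, 1.01, 0.861 and 0.913 in mutant anti-PD-1 tumours; the pair stood above the rest, none of which exceeded 1.31 FPKM. As a description, its log2 difference was 1.26 ± 0.33 (adjusted p = 0.00854), and 0.37 ± 0.23 (adjusted p = 0.411) without the pair. Pdgfra (ENSMUSG00000029231, chr5:75152292-75198215), a growth factor receptor of fibroblasts, read 4.06, 3.95, 6.98, 5.00 and 6.64 FPKM, 1.003, 4.26, 6.55, 3.57 and 6.24, 2.38, 3.30, 5.32, 4.12 and 3.78 and 21.8, 14.7, 5.72, 6.62 and 6.11 in the same order of groups. It was the 1 member for which every mutant anti-PD-1 tumour exceeded every mutant PBS tumour, but tumours 3 to 5 did so narrowly. The rise was 1.17 ± 0.37 (adjusted p = 0.0220), and without the pair 0.33 ± 0.33 (adjusted p = 0.672).

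The make-up of the collagen RNA also differed in tumours 1 and 2. Types I and III made up 75.0% and 67.6% of the summed FPKM of the 17 collagens there, against 23.3% to 56.9% in the other 18. Type IV made up 6.68% and 9.02%, against 14.1% to 35.4%. The ratio of Col1a1 to Col1a2, which the heterotrimer of type I collagen uses unequally, was 1.63 and 1.47 in the pair and 0.185 to 0.860 in the others. That of Col6a1 to Col6a2 was 2.18 and 2.47, against 3.25 to 8.76. The ratio of Col4a1 to Col4a2 stayed between 1.28 and 1.64 in all 20.

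Group differences in these ratios were tested by exact two-sided permutation of 5 against 5 tumours, where 252 arrangements allow a smallest p of 0.00794, adjusted over 12 tests. In log2, the Col1a1 to Col1a2 ratio differed by 1.28 between anti-PD-1 and PBS in mutant tumours (exact p = 0.0159, adjusted 0.0952), and by 1.27 between mutant and vector tumours under anti-PD-1 (exact p = 0.0238, adjusted 0.0952). The Col6a1 to Col6a2 ratio differed by -0.63 (exact p = 0.0159, adjusted 0.0952) and -0.83 (exact p = 0.0476, adjusted 0.114) in the same comparisons. The Col4a1 to Col4a2 ratio differed there by less, -0.10 (exact p = 0.0317, adjusted 0.0952) and -0.087 (exact p = 0.0635, adjusted 0.127). None of the 12 passed after adjustment.

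**Figure D4:**
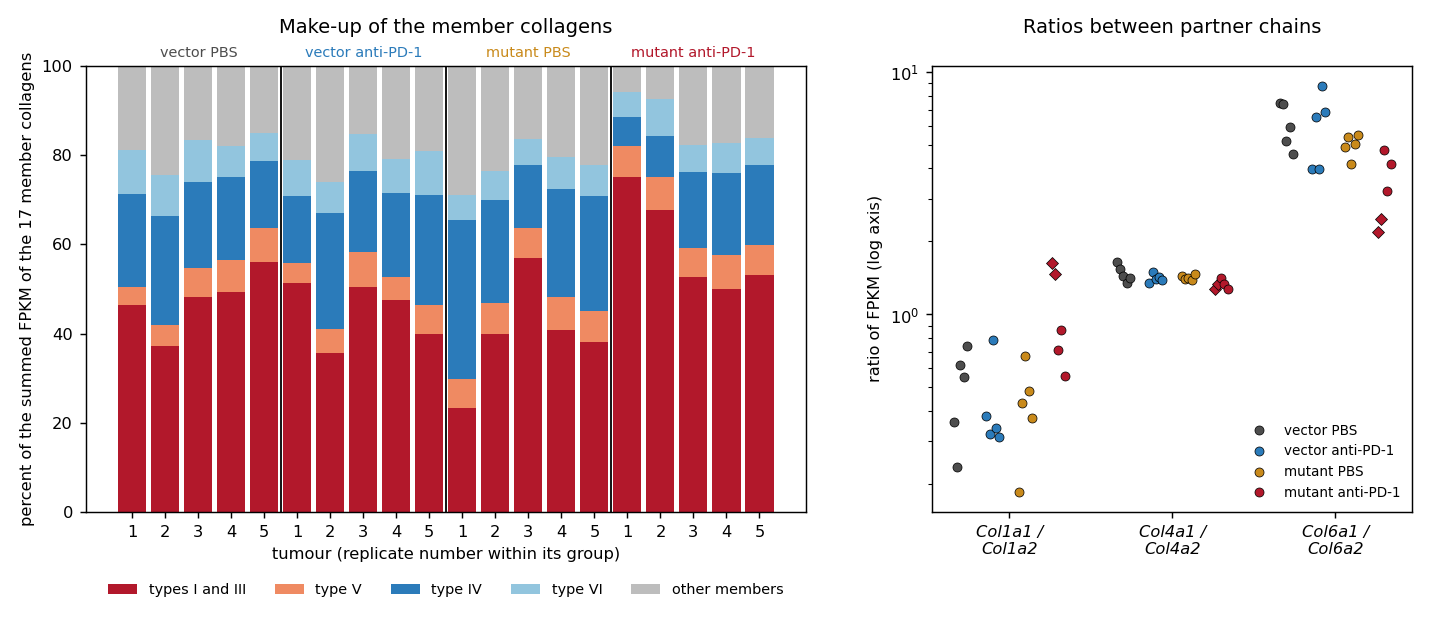
Left, stacked bars give the percent of the summed FPKM of the 17 member collagens held by each collagen type in each tumour. Right, points give ratios of FPKM between partner chains on a log axis, coloured by group, with diamonds for mutant anti-PD-1 tumours 1 and 2, which are the highest for Col1a1 to Col1a2 and the lowest for Col6a1 to Col6a2.

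Outside the pair, single tumours of a group often held its highest or lowest value for many members at once. Vector anti-PD-1 tumour 3 was the highest of its group for 33 of 36 members, mutant PBS tumour 3 for 27, and vector PBS tumours 5 and 3 for 20 and 15. The lowest were vector PBS tumour 2 for 26 members, mutant PBS tumour 1 for 26 and vector anti-PD-1 tumour 1 for 22. The last of these had the highest total FPKM of the 20 libraries (566913). It also had the lowest mitochondrial share (2.85%) and the fewest genes at 1 FPKM (11182). The same counts were not made over all genes, so a shift of a whole library cannot be told apart from one of the members. Tumour numbers hold within a group and pair nothing across groups.

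Within each identifier style the picture split. Among M-style libraries, where the mutant anti-PD-1 group is tumours 1 and 2 alone, 31 members rose under anti-PD-1 in mutant tumours (22.4% of all genes called), 31 were higher in mutant than in vector tumours under anti-PD-1 (28%), and 29 passed for the difference of responses (8.27%). The group there is the 2 tumours already known to stand apart, so these counts describe those tumours and support nothing. Among libraries with a number alone, where the group is tumours 3 to 5, 14 members rose and 1 fell under anti-PD-1 in mutant tumours (30.9%), 1 was higher and 3 were lower against vector tumours (22.9%), and 1, Thbs2, passed for the difference of responses (8.32%; 2.21 ± 0.50, adjusted p = 0.0361). The median log2 fold change under anti-PD-1 in mutant tumours was 2.40 in the first and 0.53 in the second. In tumours 3 to 5 the rise was 1.48 ± 0.33 for Fbn1 (adjusted p = 0.0126) and 1.17 ± 0.17 for Bgn (adjusted p = 0.00205), against 2 mutant PBS tumours of that style. Mutant PBS tumour 3, highest of its group for 27 members, is M-style and so was left out here. It read 11.3 FPKM for Fbn1 and 49.9 for Bgn, within the range of mutant anti-PD-1 tumours 3 to 5. Set against all 5 mutant PBS tumours, those 3 tumours gave 0 members higher and 1 lower. The 3 members lower than in vector tumours were Col6a1 (-0.78 ± 0.12, adjusted p = 0.00322), Col16a1 (-0.65 ± 0.08, adjusted p = 0.00134) and Col18a1 (-0.71 ± 0.15, adjusted p = 0.0112).

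Other genes of matrix production, from lists of known function, were counted under the same test of anti-PD-1 in mutant tumours, where 30.5% of all genes were called. Of 20 tested collagen synthesis and maturation enzymes, 6 rose and 2 fell (median 0.08): P4ha3, a prolyl hydroxylase subunit, rose by 1.68 ± 0.34 (adjusted p = 0.00115) and Bmp1, the procollagen C-proteinase, by 1.17 ± 0.29 (adjusted p = 0.00585). Of 7 other proteoglycans 4 rose, Podn, Fmod, Vcan and Aspn, with Vcan at 1.26 ± 0.37. Of 12 laminin and basement membrane genes 3 rose and 3 fell, among them the basement membrane linker Nid1 at 1.48 ± 0.48. Of 11 other elastic fibre genes 8 rose and 3 fell, with Emilin1 at 1.39 ± 0.26, Mfap4 at 2.36 ± 0.54 and Ltbp1 at -1.45 ± 0.32. Of 27 further collagen genes 3 were tested and 1, Col28a1, rose (1.46 ± 0.29), and 16 stayed below 1 FPKM in every tumour.

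Against the same 30.5% of all genes, 6 of 11 other matricellular genes rose and 1 fell: Tgfbi, an adhesion protein induced by TGF-beta, rose by 1.56 ± 0.29 (adjusted p = 0.000639), and Spp1, osteopontin, changed by -1.33 ± 0.32 (adjusted p = 0.00485). Matrix proteases and their inhibitors gave 9 higher and 1 lower of 24, with the membrane collagenase Mmp14 at 0.99 ± 0.20 (adjusted p = 0.00120) and the inhibitor Timp1 at -1.17 ± 0.24 (adjusted p = 0.00123). Matrix receptors gave 3 higher and 1 lower of 15, with the syndecan Sdc3 at 2.31 ± 0.33 (adjusted p = 6.82e-05) and the hyaluronan receptor Cd44 at -0.84 ± 0.28 (adjusted p = 0.0316). Without the pair, where 9.72% of all genes were called, these counts came to 1 higher and 0 lower, 0 and 2, and 1 and 0. The synthesis enzymes then gave 1 higher and 0 lower, the proteoglycans 0 and 0, the laminins 0 and 1, the elastic fibre genes 1 and 0, and the further collagens 1 and 0. Under PBS, mutant tumours were lower than vector tumours for Adamts14 (-0.67 ± 0.12, adjusted p = 0.00981), Lamb1 (-0.64 ± 0.11, adjusted p = 0.00357) and Lama2 (-1.85 ± 0.35, adjusted p = 0.0113), and for no other gene of these lists.

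Summed markers of fibroblasts, endothelial cells, contractile cells and adipocytes were higher in tumours 1 and 2 than in the other 18, which those of skeletal muscle were not in tumour 1, nor those of keratinocytes in tumour 2. Fibroblast markers summed to 627 and 289 FPKM in tumours 1 and 2, against 76.6 to 169 in the other 18, and 5 of 11 tested rose and 1 fell under anti-PD-1 in mutant tumours (30.5% of all genes called), and 1 and 0 did without the pair (9.72%); the 1 with the smallest p, Thy1 (1.99 ± 0.29), is also a T cell gene, and Twist2 fell. Endothelial markers summed to 209 and 143 against 28.8 to 62.0 FPKM (9 of 11 rose, 0 without the pair), and contractile and mural cell markers to 261 and 203 against 31.4 to 76.2 (1 of 9 rose, 0 without the pair). All 11 endothelial and all 9 contractile markers tested were higher in both tumours than in any other. The same held for 9 of 10 macrophage, 8 of 11 fibroblast, 6 of 9 T cell and 2 of 6 adipocyte markers. It held for 0 of 16 skeletal muscle and 0 of 1 keratinocyte markers, and for 15.8% of all genes. Adipocyte markers summed to 351 and 121 against 10.5 to 98.6 FPKM (1 of 6 rose), skeletal muscle markers to 209 and 1968 against 1.75 to 1288 (1 of 16 rose), and keratinocyte markers to 6.58 and 1.99 against 1.59 to 3.49 (0 of 1 tested), 1 of that list being listed at 0 in all 20.

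Immune markers split from the matrix genes in tumours 3 to 5. T cell markers summed to 126 and 92.5 FPKM in the pair and to between 76.8 and 83.1 in the other 3 mutant anti-PD-1 tumours. Elsewhere the sum was 37.2 at most, with 1.26 to 3.10 in vector PBS and 3.21 to 10.3 in vector anti-PD-1 tumours. All 9 rose with and without the pair, where 30.5% and 9.72% of all genes were called. At such sums single T cell markers could pass the filter mainly through the group where they are high, so their calls are a description. Macrophage markers summed to 4377 and 3607 FPKM in the pair, to 1695 to 2075 in the other 3, and to no more than 1159.95 elsewhere. Of these markers 9 of 10 rose with and without the pair, against the same 30.5% and 9.72% of all genes. What part these cells play in the members' levels was not tested.

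**Figure D5:**
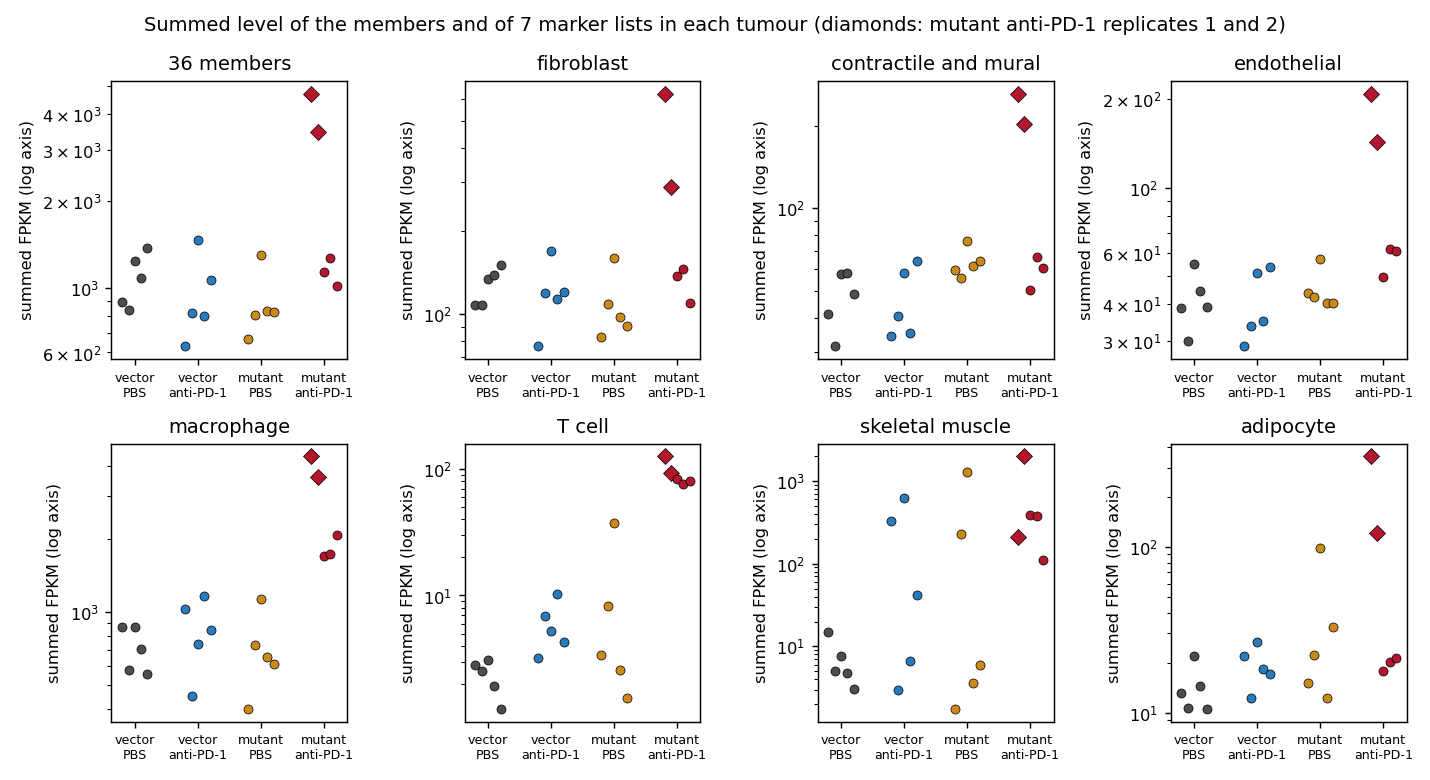
Summed FPKM of the 36 genes and of 7 marker lists in each tumour on log axes, with diamonds for mutant anti-PD-1 tumours 1 and 2. The diamonds lie on top for the 36 genes and for fibroblast, contractile, endothelial, macrophage, T cell and adipocyte markers, and tumours 3 to 5 join them above the other groups for T cell and macrophage markers.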

How the data were processed

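The values were the authors' FPKM per gene and tumour, deposited as 1 table per library of 55335 Ensembl genes with no named unit in the header; FastQC, STAR 2.5, Cuffnorm, DESeq and mm10 are named, with no role or order, per the submitters' processing notes, and FPKM was read from Cuffnorm and from totals that differ between libraries. The sources used here do not give counting strand, read depth or annotation, so intervals on single libraries were not computed, and genes that share bases may share reads.

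Genes at 1 FPKM or more in at least 5 libraries were tested as log2(FPKM + 1), which understates changes of low genes, with limma 3.58.1 (R 4.3.3): 4 group means, an intensity trend and a term for identifier style (6 genes past the threshold for it), Benjamini-Hochberg adjustment over all 13982 genes and a threshold of 0.05. The script was tested on simulated data. Ratios were tested by exact permutation in Python 3.11.15 (numpy 2.4.6, scipy 1.17.1). All 36 members are named; from every other list at most 4 genes per comparison past the threshold, by smallest p. Members and lists were chosen with earlier results of these data known. Replicates are separate mice per the design. The p-values judge group differences against the spread between these tumours. Alternatives were pseudocount 0.1, no filter, no style term, no trend, quantile and median-ratio scaling, omissions of libraries and each style alone. Promoters are RefSeq windows (GRCm38.p6).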

Additional observations from a re-analysis of the deposited data

Results flagged for a closer look

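Among 156 groups of 5 tumours examined (36 genes and 3 chain ratios in 4 groups), 6 had 1 tumour far from the other 4, its gap to the nearest taking more than 0.71 of the group's range. Gaps and ranges were taken on log2(FPKM + 1) for genes and on the log2 of the ratio for chain ratios. Chance flags about 1 in 20 groups. In vector anti-PD-1 tumours, tumour 3 was high for Col1a1 (86.6 FPKM, gap 0.755 of the range) and for the ratio of Col1a1 to Col1a2 (0.782, gap 0.784). In mutant PBS tumours, tumour 3 was high for Fbln1 (2.84 FPKM, gap 0.769) and for Dcn (36.8 FPKM, gap 0.75). In vector PBS tumours, tumour 3 was high for Bgn (30.1 FPKM, gap 0.778) and tumour 1 was low for Col8a1 (24.7 FPKM, gap 0.808). Tumours 1 and 2 of the mutant anti-PD-1 group lie beside each other, and a gap to the nearest tumour does not single out either of them.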

How the results depend on the processing

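No paired analysis was possible because no label ties a tumour of one group to a tumour of another, and numbers within a group follow the order of deposition. Read depth is unknown, genes such as Eln and Fbln1 lie near the filter, and only 5 tumours per group, 2 of them apart from the rest, set the precision. Counts of the 36 genes past the threshold and their median log2 fold changes were recomputed under each alternative; the cause of a change was not tested beyond what the omission itself shows.

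Leaving out mutant anti-PD-1 tumours 1 and 2 gave 1 gene and a median of 0.32 for anti-PD-1 in mutant tumours (9.72% of all genes called). It gave 2 genes and 0.14 for mutant against vector under anti-PD-1 (11%), and a median of 0.51 for the difference of responses (1.09%). Leaving out vector anti-PD-1 tumour 1 as well gave 1 and 0.35, 4 (1 higher, 3 lower) and 0.10, and a median of 0.44. All genes called in those comparisons numbered 3097, 3246 and 387 of 13982. Under PBS 3 genes were then lower (Col6a1, Dcn and Col16a1), where 1643 of the 13982 genes were called, a larger share than among the 36. M-style libraries alone, where the pair is the whole mutant anti-PD-1 group, gave medians of 2.40, 2.78 and 2.85. They gave 29 genes for the difference of responses (8.27% of all genes) and 0 under PBS, where 12 of the 13982 genes were called. Libraries with a number alone turned the median for anti-PD-1 in vector tumours from -0.23 to 0.14, and gave 0.53, -0.074 and 0.33 for the comparisons above. They gave 4 genes for mutant against vector under anti-PD-1 (22.9% of all genes) and 1 for the difference of responses (8.32%). Quantile normalization also gave 1 for the difference of responses, where 1829 of the 13982 genes were called. Without the filter 15 of the 36 genes rose under anti-PD-1 in mutant tumours, as did 3832 of all 35519 genes. Under anti-PD-1, 13 of the 36 were higher in mutant than in vector tumours, as were 4353 of the 35519.

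Reversed directions are listed only for members past the threshold with all libraries or under the alternative. Among these, directions reversed for Col18a1, to -0.52, -0.51 and -0.49 under anti-PD-1 in mutant tumours (without the pair, without the pair and vector anti-PD-1 tumour 1, and number-style alone) and to -0.58, -0.59 and -0.71 for mutant against vector under anti-PD-1. In the latter comparison, number-style libraries also gave Col1a2 -0.0185, Col5a1 -0.13, Col6a1 -0.78, Col6a2 -0.37, Col6a3 -0.17, Sparc -0.10, Fap -0.17 and Pdgfra -0.0507. Sparc was -0.032 without the pair, and Fbln2 was -0.39 without the pair and vector anti-PD-1 tumour 1. Of all 36 members, 33 had the higher mean there with all libraries (50.2% of all genes), 25 without the pair (53.4%) and 15 in number-style libraries (43.3%). For anti-PD-1 in mutant tumours these were 33 (40.2%), 25 (41.0%) and 30 (48.8%).

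Leaving out 1 tumour at a time gave 0 to 0 genes for anti-PD-1 in vector tumours (median -0.50 to -0.03), 5 to 23 in mutant tumours (0.96 to 1.41), 1 to 1 under PBS (-0.35 to -0.03), 9 to 26 for mutant against vector under anti-PD-1 (0.82 to 1.54) and 0 to 15 for the difference of responses (1.17 to 1.80). Over all 13982 genes the same fits called 0 to 0, 2754 to 4354, 83 to 215, 3280 to 6042 and 688 to 2247 genes, in that order. The 9 came without mutant anti-PD-1 tumour 1 or 2 (3332 and 3280 of all genes called). The 15 came without vector anti-PD-1 tumour 3 (1642), and 12 without mutant PBS tumour 3 (1878). Omitting mutant anti-PD-1 tumours 3, 4 and 5 in turn gave 5, 2 and 6 (1514, 1400 and 1405). Omitting vector PBS tumour 2 (1204) or vector anti-PD-1 tumour 5 (1288) gave 2. The log2 ratio of Col4a1 to Col4a2 then differed by -0.125 to -0.0876, and that of Col6a1 to Col6a2 by -0.77 to -0.488, between anti-PD-1 and PBS in mutant tumours; without mutant anti-PD-1 tumour 3 both passed (exact permutation, adjusted p = 0.0476 for each).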
